A study of Mus musculus with 6 samples.

Results

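The genes described here are 9 members of the EGF, HGF and KIT receptor systems, chosen by gene symbol: the receptors Egfr, Erbb2, Erbb3, Met and Kit, and the ligands Kitl, Areg, Hbegf and Epgn. All 9 were among the 23238 symbols counted. The rule itself uses symbols and no value, but the genes were chosen with earlier results of these data known. The samples were 6 libraries of RNA 3′ tags from 129/Ola mouse embryonic stem cells. In the EWS-OCT-4 line (3 libraries) the cells stably carried EWS-OCT4A-GFP, in which the sarcoma protein EWS is joined to OCT-4, and in the EGFP control line (3 libraries) they stably carried GFP. Cells of both lines were grown with LIF and received doxycycline at 1 µg/ml, which lowers their own OCT-4, so no library shows either line with OCT-4 left in place. The promoter that drives the transgenes, and whether a line is 1 clone, are not given here, so the fusion and other differences between the lines cannot be told apart.

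A receptor tyrosine kinase sits in the cell membrane, pairs when a ligand binds outside, and passes the signal inward through adaptors to the RAS-ERK and PI3K-AKT cascades. EGFR, ERBB2 and ERBB3 form pairs with each other: EGFR binds amphiregulin (Areg), heparin-binding EGF-like growth factor (Hbegf) and epigen (Epgn), ERBB2 has no known ligand of its own, and the kinase of ERBB3 is weak. MET is the receptor of hepatocyte growth factor, and KIT that of stem cell factor (Kitl). In the mouse embryo, HBEGF and EGFR are known for their part in attachment and growth of trophoblast, and KIT for that in germ cells, blood and melanocytes.

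The stretches of DNA in front of the RefSeq starts of 4 of these genes are shown because Kit rose and Kitl, Egfr and Met fell, as described further on. Each is the 250 bases before the gene's start in RefSeq, assembly GRCm38.p6, plus strand: chr5:75574737-75574986 for Kit, chr10:100015571-100015820 for Kitl, chr11:16751953-16752202 for Egfr and chr6:17463707-17463956 for Met. The starts of Kit, Kitl and Met in another annotation, GENCODE M21, are given further on and lie inside these windows. By that annotation, part of the windows of Kit, Kitl and Met is within the gene. Capitals mark every match, on either strand, to 7 motifs that were searched.
Egfr: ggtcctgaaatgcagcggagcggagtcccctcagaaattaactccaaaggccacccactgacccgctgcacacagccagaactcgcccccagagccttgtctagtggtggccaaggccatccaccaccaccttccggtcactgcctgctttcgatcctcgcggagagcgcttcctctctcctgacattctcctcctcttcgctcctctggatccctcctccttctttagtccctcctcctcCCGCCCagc
Met: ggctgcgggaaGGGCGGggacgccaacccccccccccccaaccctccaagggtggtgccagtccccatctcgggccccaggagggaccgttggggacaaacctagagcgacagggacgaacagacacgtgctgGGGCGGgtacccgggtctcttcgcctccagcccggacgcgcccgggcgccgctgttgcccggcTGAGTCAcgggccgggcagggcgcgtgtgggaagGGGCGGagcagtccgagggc
Kit: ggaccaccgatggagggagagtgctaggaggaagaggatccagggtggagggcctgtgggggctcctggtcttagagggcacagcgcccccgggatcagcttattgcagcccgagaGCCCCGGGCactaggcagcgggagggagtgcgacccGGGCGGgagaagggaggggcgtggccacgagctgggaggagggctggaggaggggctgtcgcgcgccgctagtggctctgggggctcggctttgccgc
Kitl: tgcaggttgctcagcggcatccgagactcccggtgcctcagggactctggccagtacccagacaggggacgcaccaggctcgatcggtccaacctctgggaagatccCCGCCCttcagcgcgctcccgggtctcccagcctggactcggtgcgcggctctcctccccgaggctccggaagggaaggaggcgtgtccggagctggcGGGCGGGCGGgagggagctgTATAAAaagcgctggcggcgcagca

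The motifs searched were the SP1 motif GGGCGG, the AP-2 motif GCCNNNGGC, the octamer ATGCAAAT bound by OCT-4, the AP-1 motif TGANTCA, the GATA factor motif AGATAA, the E-box CACCTG and the TATA box motif TATAAA. The SP1 letters stood in all 4 windows, with 3 matches each in those of Kitl and Met. The matches at 45 and 41 bases before the RefSeq start of Kitl overlapped. Of 32817 promoter windows of the same length, 32.7% held that motif. Kit alone of the 4 had a match to AP-2 (13.7% of all windows), Met alone one to AP-1 (6.75%) and Kitl alone one to TATA (12.4%). None of the 4 held the octamer, which was in 1.6% of windows. These matches describe the letters of the windows, and no binding was measured. Promoters of 7 of the 9 genes were in the RefSeq table; those of Erbb3 and Hbegf were not used here.

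Libraries held 10978025 to 12281444 counts in the EWS-OCT-4 line and 13239383 to 14935887 in the EGFP line, so 1 count stood for 0.0650 to 0.0924 CPM (CPM, the count scaled to library size by TMM). The share of counts on the ribosomal RNA gene Rn45s was 7.36% to 10.5% in EWS-OCT-4 libraries and 5.85% to 6.44% in EGFP libraries, without overlap, so it moved with every difference given below, and its part in them was not tested. Within each line, replicate 3 differed most from the other libraries: the chi-square of its counts against replicates 1 and 2, divided by the degrees of freedom, was 34.4 and 34.6 in the EWS-OCT-4 line and 25.3 and 26.8 in the EGFP line. Between replicates 1 and 2 it was 4.31 in the EWS-OCT-4 line and 4.01 in the EGFP line. The 12 stem cell markers examined summed to 6275 to 6846 CPM in EWS-OCT-4 libraries and 518 to 689 CPM in EGFP libraries, and all 12 were higher in the EWS-OCT-4 line. The 14 trophoblast markers summed to 272 to 309 CPM in EWS-OCT-4 libraries and 11161 to 11352 CPM in EGFP libraries. Of the 13 that were tested all 13 were lower in the EWS-OCT-4 line, and Plac1, Prl3d1 and Prl2c2 had no count there. The EGFP libraries thus differ from their label of embryonic stem cell in these markers. Stem cell and trophoblast markers moved with every difference given below, and their part in those differences was not tested. In such bulk samples, fewer cells of a type and less RNA per cell cannot be told apart. All p-values measure the spread between these libraries, since no label says that they came from separate cultures.

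Differences between lines were tested across all genes with edgeR's quasi-likelihood test, and called at a Benjamini-Hochberg adjusted p under 0.05. In this comparison 67.4% of the 13467 tested genes were called, 33.3% higher and 34.1% lower in the EWS-OCT-4 line, and 72.7% had no overlap between the values of the lines. Of the 9 members, 6 had enough counts to be tested, and Erbb3, Areg and Epgn did not. Of the 6, Kit rose, Egfr, Met, Kitl and Hbegf fell, and Erbb2 was not called. Egfr, Met and Kitl reached the required number of libraries only with the help of the EGFP line, where they were high, so the count of calls among the 6 says nothing about the family. With so many genes called, 5 of 6 is also not far from the background.

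**Figure D1:**
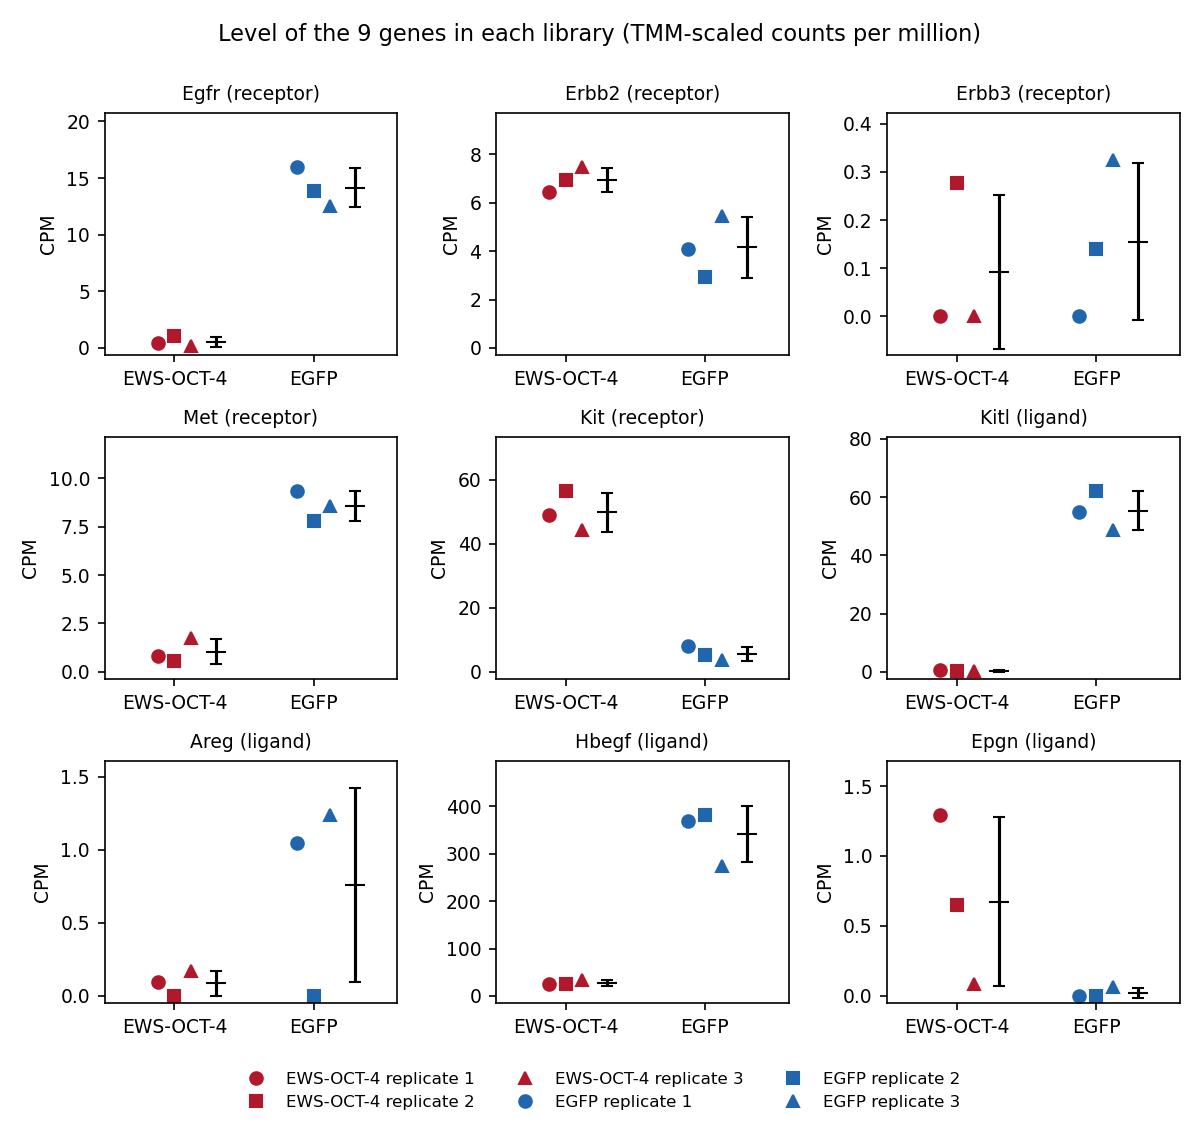
Level of each of the 9 genes in every library, in TMM-scaled CPM on a linear axis of its own, with EWS-OCT-4 libraries in red, EGFP libraries in blue, the shape giving the replicate number and the black mark the mean ± SD (n = 3 per line). Kit libraries of the EWS-OCT-4 line sit at 44.2 to 56.4 CPM, above all EGFP libraries, while Kitl, Egfr, Met and Hbegf lie the other way round and the values of Erbb3 and Areg overlap between the lines.

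The KIT receptor and its ligand moved in opposite directions. Kit had 48.9, 56.4 and 44.2 CPM in the EWS-OCT-4 libraries numbered 1, 2 and 3, and 7.98, 5.19 and 3.64 CPM in the EGFP libraries. The lowest EWS-OCT-4 library was thus above the highest EGFP library by a wide margin, with 526 counts against 107. The mean was 49.8 ± 6.19 CPM in the EWS-OCT-4 line and 5.60 ± 2.20 CPM in the EGFP line (SD, n = 3 each), 8.92-fold higher (log2 fold change 3.16, SE 0.26, adjusted p = 3.7e-06 in the edgeR test). Leaving out single libraries kept the log2 fold change of Kit between 2.92 and 3.49, and without both libraries numbered 3 it was 3.02. In GENCODE M21 (GRCm38, the assembly of mm10) Kit lies on chromosome 5 at 75574916 to 75656722, plus strand, with no other gene overlapping it.

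Kitl, the stem cell factor that binds KIT, was nearly absent from the EWS-OCT-4 line. It had 8, 2 and 3 counts in the EWS-OCT-4 libraries, against 738, 884 and 748 counts in the EGFP libraries. These counts correspond to 0.738, 0.185 and 0.252 CPM in the EWS-OCT-4 line and 55.0, 62.0 and 48.6 CPM in the EGFP line, with no overlap. The fall of Kitl was the largest among the 6 tested members (log2 fold change -7.12, SE 0.33, adjusted p = 7.7e-08 by edgeR), 139-fold lower than in the EGFP line. EWS-OCT-4 replicate 1 held 8 of the 13 counts, and without it the log2 fold change was -7.91. The gene lies on chromosome 10 at 100015630 to 100100416, plus strand, and overlaps no other gene. EWS-OCT-4 cells thus had high Kit and low Kitl, and EGFP cells low Kit and high Kitl, each relative to the other line. Of the mast and blood cell markers, in whose lineages KIT is also known, the 8 genes together reached 6.09 to 11.7 CPM in EWS-OCT-4 libraries and 25.8 to 29.4 CPM in EGFP libraries. Of the 5 that were tested, 3 fell (Gata1, Runx1 and Spi1) and 1 rose. That was Tal1, a transcription factor of blood formation, with 16, 62 and 47 counts in the EWS-OCT-4 libraries and 0, 1 and 0 counts in the EGFP libraries (adjusted p = 0.000111 by edgeR); these genes were named after their values were seen. The mast cell protease genes Cpa3 and Mcpt4 were near 0: Cpa3 had no count in either line and Mcpt4 none in the EGFP line. The 6 germ cell markers gave 306 to 324 CPM in EWS-OCT-4 libraries and 1174 to 1183 CPM in EGFP libraries, mostly from Tfap2c, which is also in the trophoblast list. Of these 6, 4 rose and 1 fell. Over all tested genes 33.3% were called higher and 34.1% lower, and neither the blood nor the germ cell list was tested as a set.

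The EGF receptor fell. Egfr had 5, 11 and 2 counts in the EWS-OCT-4 libraries, against 214, 198 and 193 counts in the EGFP libraries. All 3 EWS-OCT-4 libraries, at 0.461, 1.02 and 0.168 CPM, lay far below the EGFP libraries, at 16.0, 13.9 and 12.6 CPM. The level averaged 0.548 ± 0.431 CPM in the EWS-OCT-4 line and 14.1 ± 1.72 CPM in the EGFP line (SD, n = 3 each), a log2 fold change of -4.69 (SE 0.44, adjusted p = 8.1e-06 by edgeR). Without EWS-OCT-4 replicate 2, which held 11 of its 18 counts, it was -5.47. Egfr lies on chromosome 11 at 16752203 to 16918158, plus strand, and the antisense RNA Egfros overlaps it on the other strand.

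Erbb2, the partner receptor without a ligand, was not called. Its libraries had 6.46, 6.93 and 7.47 CPM in the EWS-OCT-4 line and 4.10, 2.95 and 5.46 CPM in the EGFP line. The lines did not overlap, and EGFP replicate 3 came closest to the EWS-OCT-4 libraries. The log2 fold change was 0.73 (SE 0.30) with an adjusted p = 0.0533 in the edgeR test, just short of the threshold, at means of 6.95 ± 0.509 CPM in the EWS-OCT-4 line and 4.17 ± 1.26 CPM in the EGFP line (SD, n = 3 each). Erbb2 passed as higher with limma-voom (adjusted p = 0.0377), with DESeq2 (adjusted p = 0.0428), without EGFP replicate 3 (log2 fold change 0.97, adjusted p = 0.0185 by edgeR) and without both libraries numbered 3 (0.94, adjusted p = 0.0161). Among the alternatives tested against no change, its adjusted p ranged up to 0.184 by edgeR, without EGFP replicate 2. In edgeR's test against a change of 1.5-fold, which asks for more, the adjusted p was 0.243. The end of Erbb2 touches that of Mien1, a protein-coding gene on the opposite strand, and it is not known whether counting used strand. The small nuclear RNA gene Gm25048 also overlaps Erbb2 on the opposite strand. Mien1 was at 62.1 CPM in the EWS-OCT-4 line and 66.3 CPM in the EGFP line (log2 fold change -0.09, SE 0.16).

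Erbb3, the receptor with a weak kinase that signals through ERBB2, was at the floor of detection in both lines. It had 0, 3 and 0 counts in the EWS-OCT-4 libraries and 0, 2 and 5 counts in the EGFP libraries. The depth-scaled ratio of EWS-OCT-4 to EGFP was 0.549 with an exact 95% interval from 0.0917 to 2.41, so no difference was detectable at this depth. Leaving out EGFP replicate 3 turned the ratio to 1.24. Without EWS-OCT-4 replicate 2, which held all counts of its line, no count was left there. Intervals of this kind cover counting error only. The microRNA gene Mir6917 overlaps Erbb3 on the same strand.

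Met, the receptor of hepatocyte growth factor, fell in the EWS-OCT-4 line. It had 0.830, 0.554 and 1.76 CPM in the EWS-OCT-4 libraries, against 9.32, 7.79 and 8.58 CPM in the EGFP libraries. EWS-OCT-4 replicate 3 was the highest of its line with 21 counts, against 9 and 6 in numbers 1 and 2, and still stood far below the EGFP libraries, which held 111 to 132 counts. The log2 fold change was -3.00 (SE 0.41, adjusted p = 0.000105 by edgeR), 8.01-fold lower, and it was -3.61 without EWS-OCT-4 replicate 3 and -3.59 without both libraries numbered 3. Met lies on chromosome 6 at 17463800 to 17573980, plus strand, with no overlapping gene. Its ligand gene Hgf had no count in the EWS-OCT-4 line and 1 count in the EGFP line, at or under the floor in both.

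Hbegf, a membrane-bound ligand that is shed to activate EGFR, fell together with it. Its level was 24.2, 24.6 and 34.6 CPM in the EWS-OCT-4 libraries and 369, 381 and 273 CPM in the EGFP libraries. Both libraries numbered 3 lay toward the other line, the EWS-OCT-4 one highest and the EGFP one lowest of its 3, and the lines stayed far apart. The mean was 27.8 ± 5.91 CPM in the EWS-OCT-4 line and 341 ± 59.3 CPM in the EGFP line (SD, n = 3 each), 12.3-fold lower (log2 fold change -3.62, SE 0.20, adjusted p = 2.1e-07 by edgeR). Without both libraries numbered 3 the log2 fold change was -3.93.

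The ligands Areg and Epgn were rare. Areg, an EGFR ligand of epithelia, had 1, 0 and 2 counts in the EWS-OCT-4 libraries and 14, 0 and 19 counts in the EGFP libraries. The lines overlapped, since EGFP replicate 2 held none while the other EGFP libraries held most of the counts. The ratio of EWS-OCT-4 to EGFP was 0.117 (exact 95% interval 0.0229 to 0.371), without EWS-OCT-4 replicate 3 it was 0.0602, without EGFP replicate 3 it was 0.177, and with no filter on low counts Areg did not pass the test (adjusted p = 0.0719 by edgeR). Epgn, a weak EGFR ligand, went the other way, with 14, 7 and 1 counts in the EWS-OCT-4 libraries and 0, 0 and 1 count in the EGFP libraries. EWS-OCT-4 replicate 3 held as few counts as EGFP replicate 3, so the higher level rested on replicates 1 and 2. The ratio was 28.2 (exact 95% interval 4.56 to 1164), 15.1 without EWS-OCT-4 replicate 1 and 41.7 without EWS-OCT-4 replicate 3. Without EGFP replicate 3, where that line had no count, Epgn was at least 3.10-fold higher, with the floor set at 3 counts per library. With no filter it passed the test (adjusted p = 0.0227 by edgeR). Both genes lie on chromosome 5, plus strand, Epgn at 91027464 to 91035215 and Areg at 91139599 to 91148432.

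**Figure D2:**
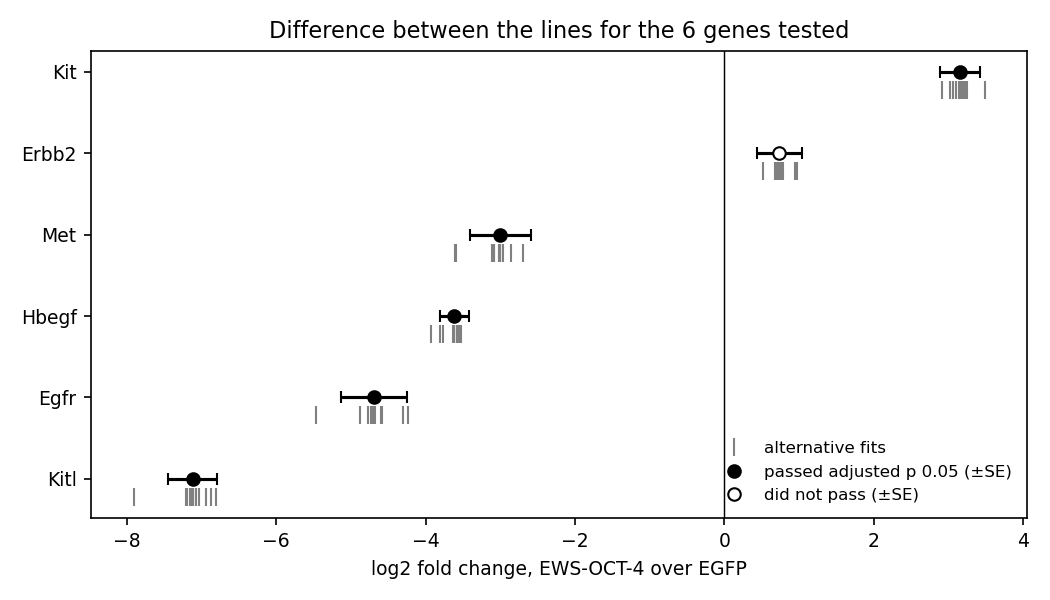
Log2 fold change of EWS-OCT-4 over EGFP with its SE for the 6 tested genes (circles, filled where the adjusted p was under 0.05), with grey ticks below each for the alternative fits. Kit is at 3.16 and Kitl at -7.12, and no tick crosses 0 for any of the 6.

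Genes whose pattern was most like that of Kit and Hbegf, the most abundant riser and faller among the members, were searched among the 8921 tested genes whose mean reached 10 CPM, by the root mean square difference of centred log2 CPM over the 6 libraries. For Kit they were Foxp1, a forkhead transcription factor (difference 0.172), Gfpt2, an enzyme of hexosamine synthesis (0.180), and Rps6ka2, a kinase activated by ERK (0.228). Foxp1 was at 126 ± 3.52 CPM in the EWS-OCT-4 line and 12.9 ± 5.96 CPM in the EGFP line (SD, n = 3 each). For Hbegf they were Prss8, a membrane-anchored protease of epithelia (0.0733), Iqsec1, an exchange factor for ARF GTPases (0.0809), and Prr5l (0.100). Prss8 was at 24.7 ± 4.17 CPM in the EWS-OCT-4 line and 293 ± 33.0 CPM in the EGFP line (SD, n = 3 each).

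Other ligands and receptors of the ERBB system were mostly below the filter: 3 of 9 were tested, of which 1 rose, 1 fell and 1 was not called. The share called, 66.7%, was near the 67.4% over all tested genes. The 2 called genes passed the filter only through the line where they were high. Tgfa, a high-affinity EGFR ligand, fell like Hbegf, to 0.621 ± 0.387 CPM in the EWS-OCT-4 line, against 10.3 ± 4.43 CPM in the EGFP line (SD, n = 3 each; log2 fold change -4.02, SE 0.54, adjusted p = 9.3e-05 by edgeR). Nrg2, a neuregulin for ERBB3 and ERBB4 named after its values were seen, rose at a low level, 1.25 CPM in the EWS-OCT-4 line and 0.164 CPM in the EGFP line (log2 fold change 2.87, and 3.50 without EGFP replicate 1). Nrg4, also named after its values were seen, was not called (-0.07).

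Among genes that release the ligands, 6 of the 8 tested genes for ADAM sheddases and rhomboid-like proteins fell, none rose and 2 were not called. The share called, 75%, was near the 67.4% over all tested genes, and their median log2 fold change was -1.16, against -0.0042 for all tested genes. Adam19 fell to 9.90 ± 1.88 CPM in the EWS-OCT-4 line, against 103 ± 4.83 CPM in the EGFP line, and Rhbdf1, a rhomboid-like partner of the sheddase ADAM17, to 8.42 ± 2.25 CPM, against 47.8 ± 5.01 CPM in the EGFP line (SD, n = 3 each). Adam8, which passed the filter only through the EGFP line, had a log2 fold change of -3.22 (SE 0.36). Adam17, the main sheddase of several EGFR ligands, chosen after its values were seen, fell less, with a log2 fold change of -0.82 (SE 0.13, adjusted p = 0.000316 by edgeR).

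Other genes of the HGF and MET system were 9, of which 5 were tested: 2 fell and 3 were not called (median -0.21 on the log2 scale), so that 40% were called, against 67.4% over all tested genes. Spint1, an inhibitor of the proteases that activate HGF, fell to 24.6 ± 3.26 CPM in the EWS-OCT-4 line, against 123 ± 9.55 CPM in the EGFP line (SD, n = 3 each; log2 fold change -2.33, SE 0.15). The related inhibitor Spint2 also fell, with a log2 fold change of -1.43 (SE 0.44, adjusted p = 0.0153 by edgeR). Both libraries numbered 3 held less of it than the others of their line, at 7.81 CPM in the EWS-OCT-4 line and 27.7 CPM in the EGFP line. The call of Spint2 was lost without EGFP replicate 1 (adjusted p = 0.0520 by edgeR), without EGFP replicate 2 (0.0602) and with no filter (0.0952). It was also lost at a threshold of 0.01. With a replicate block the log2 fold change of Spint2 was -1.50 (SE 0.17, adjusted p = 5.5e-05 by edgeR). Without both libraries numbered 3 it was -1.34 (adjusted p = 4.8e-09 by edgeR). The protease St14, chosen after its values were seen, was at 36.3 CPM in the EWS-OCT-4 line and 41.9 CPM in the EGFP line and was not called.

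Of the 15 tested genes on a list of inhibitors of these receptors and relatives of such inhibitors, 1 rose, 6 fell and 8 were not called (median log2 fold change -0.42). The share called was 46.7%, against 67.4% over all tested genes. Errfi1, which encodes the EGFR inhibitor MIG6 and is itself induced by EGFR signalling, fell to 4.93 ± 2.22 CPM in the EWS-OCT-4 line, against 70.7 ± 4.44 CPM in the EGFP line (SD, n = 3 each; log2 fold change -3.85, SE 0.29, adjusted p = 1.6e-06 by edgeR). The receptor phosphatase gene Ptprj, which passed the filter only through the EGFP line, fell by 3.51 (SE 0.41). The gene that rose was Lrig3, of a family of membrane proteins that includes the EGFR inhibitor LRIG1, at 15.3 ± 0.901 CPM in the EWS-OCT-4 line and 1.84 ± 0.651 CPM in the EGFP line (SD, n = 3 each).

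Of the 33 tested adaptors and kinases below the receptors, 7 were higher, 18 lower and 8 not called, and their median log2 fold change was -0.64. The share called, 75.8%, was near the 67.4% over all tested genes. Gab2, a docking adaptor of KIT and EGFR that recruits PI3K, nearly disappeared, with 0.554 ± 0.423 CPM in the EWS-OCT-4 line and 186 ± 10.9 CPM in the EGFP line (SD, n = 3 each; log2 fold change -8.34, SE 0.32, adjusted p = 3.6e-08 by edgeR). Gab2 passed the filter only through the EGFP line. Without EWS-OCT-4 replicate 3 the log2 fold change of Gab2 was -8.94. The kinase gene Akt1 fell to 49.9 ± 8.03 CPM in the EWS-OCT-4 line, against 712 ± 62.2 CPM in the EGFP line (SD, n = 3 each), and the phospholipase gene Plcg2 and the PI3K subunit gene Pik3cb fell by 3.54 (SE 0.22) and 2.54 (SE 0.17) on the log2 scale. Among genes chosen after their values were seen, the adaptor Shc1 rose by 1.32 on the log2 scale (SE 0.15), while the adaptor Grb2 (0.19) was not called.

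**Figure D3:**
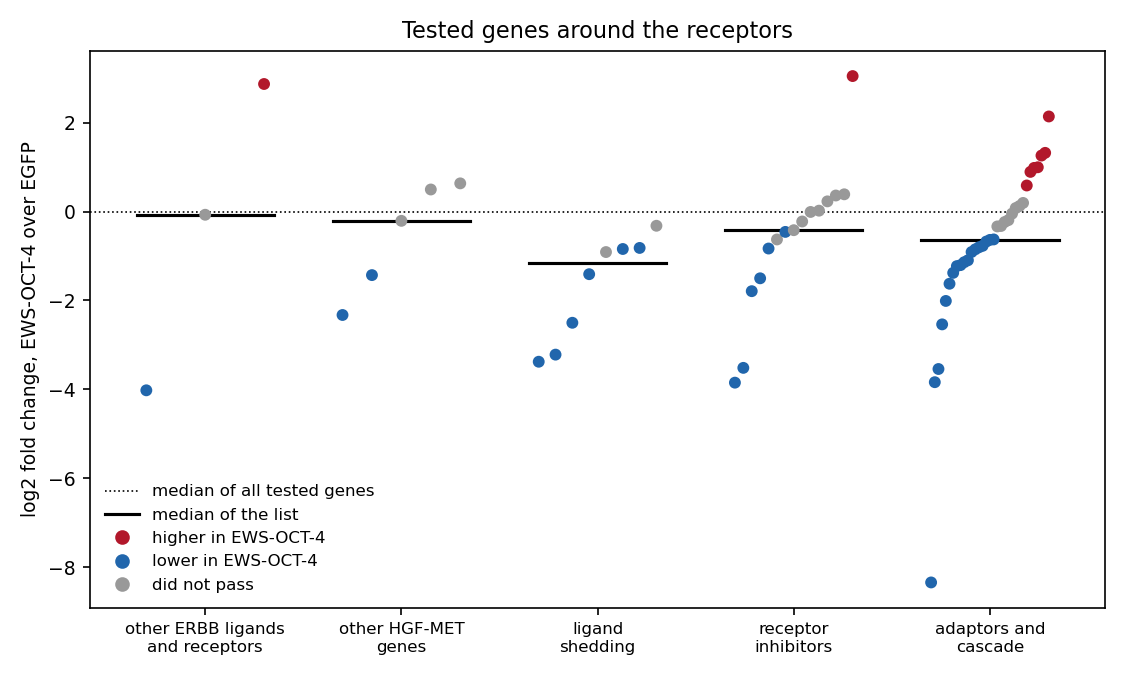
Log2 fold change of EWS-OCT-4 over EGFP for each tested gene of the 5 lists around the receptors, coloured by call, with a bar at the median of each list and a dotted line at the median of all tested genes. No tested gene of ligand shedding lies above 0, and Gab2 is the lowest point at -8.34.

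Of 38 other receptor tyrosine kinases, leaving out those of FGF, VEGF and IGF, 22 were tested, and 10 rose, 7 fell and 5 were not called (median 0.52 on the log2 scale). The share called was 77.3%, against 67.4% over all tested genes. Of the 22, 3 passed the filter only through the EWS-OCT-4 line (Epha2, Epha7 and Tek) and 5 only through the EGFP line (among them Flt3, Csf1r and Pdgfra), so these counts say nothing about the list as a whole. Flt3 and Csf1r, which are close relatives of Kit with blood cell functions, fell while Kit rose. Pdgfrb, of the same subfamily and chosen after its values were seen, rose like Kit. Its level was 5.51 ± 0.891 CPM in the EWS-OCT-4 line and 2.25 ± 1.11 CPM in the EGFP line (log2 fold change 1.28, SE 0.42, adjusted p = 0.0192 by edgeR). Flt3 was at 0.151 ± 0.109 CPM in the EWS-OCT-4 line and 31.5 ± 8.54 CPM in the EGFP line (log2 fold change -7.63, SE 0.42, adjusted p = 2.5e-07 by edgeR; -8.34 without EWS-OCT-4 replicate 2). Csf1r was at 0.296 ± 0.279 CPM in the EWS-OCT-4 line and 26.9 ± 12.9 CPM in the EGFP line (-6.45, SE 0.64; -7.18 without EWS-OCT-4 replicate 1). Pdgfra, of the same subfamily, had 1 count in the EWS-OCT-4 line and 120 in the EGFP line, 93.6-fold lower (exact 95% interval 16.5 to 3728), and without EWS-OCT-4 replicate 1, which held that count, it had none.

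The largest rises on that list were in Epha2, Ptk7 and Tek. Epha2, an ephrin receptor, was at 21.1, 19.6 and 8.06 CPM in the EWS-OCT-4 libraries and 0.522, 0.772 and 0.715 CPM in the EGFP libraries (log2 fold change 4.57, SE 0.44, adjusted p = 9.9e-06 by edgeR). Ptk7, a pseudokinase of WNT and planar polarity signalling, was at 40.0, 51.4 and 13.8 CPM in the EWS-OCT-4 libraries and 0.895, 1.61 and 2.60 CPM in the EGFP libraries (4.34, SE 0.52), and the log2 fold change was 5.19 without both libraries numbered 3. In both genes EWS-OCT-4 replicate 3 was the lowest of its line and still above every EGFP library. Tek, the angiopoietin receptor, stayed low at 2.29 ± 0.913 CPM in the EWS-OCT-4 line and 0.113 ± 0.106 CPM in the EGFP line (4.19, SE 0.74; 4.85 without EGFP replicate 2).

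**Figure D4:**
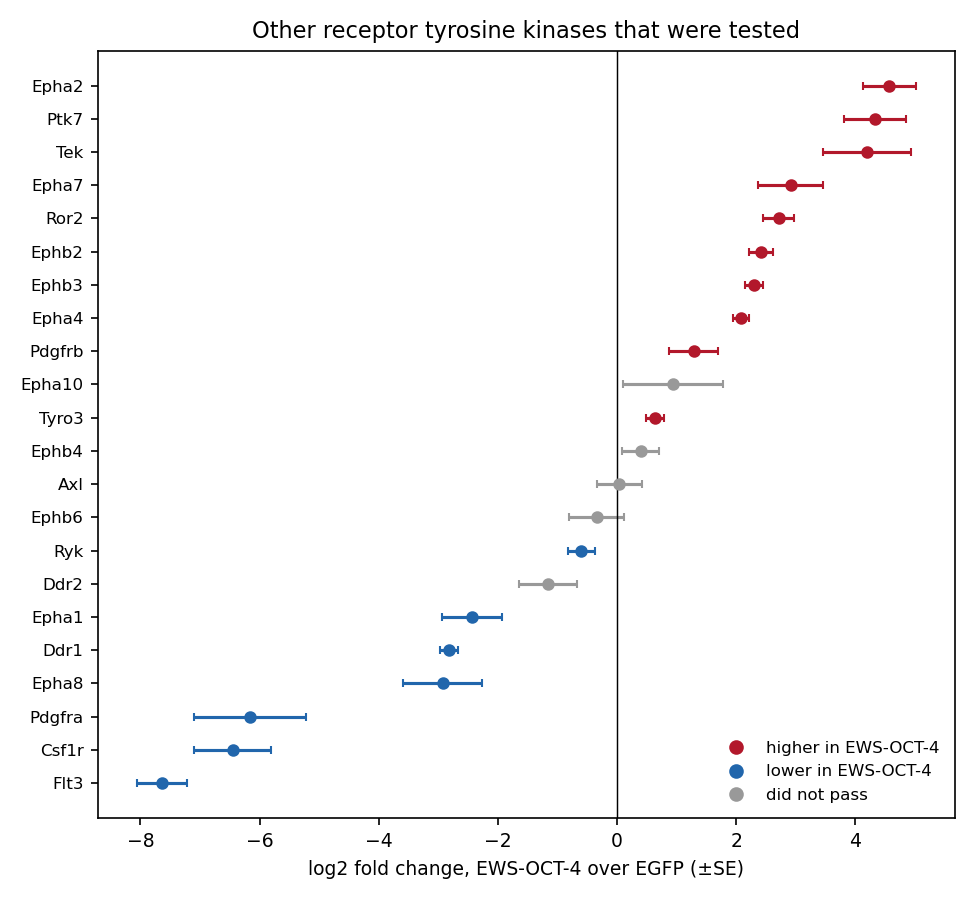
Log2 fold change of EWS-OCT-4 over EGFP with its SE for the 22 tested receptor tyrosine kinases outside the 9 members, red where higher, blue where lower and grey where not called. Flt3 and Csf1r are at the low end (-7.63 and -6.45) with Pdgfra, whose fitted value rests on 1 count in the EWS-OCT-4 line, and Epha2 is at the high end (4.57).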

How the data were processed

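Libraries were made from total RNA with a Lexogen QuantSeq kit, which reads 3′ ends, per the labels' protocols. Bowtie2, edgeR and mm10 are named, with no version, in the submitters' processing notes. The deposited values are raw counts of each gene symbol in 1 library; counting tool, annotation and strand use are not given. The 35 symbols on more than 1 line (79 lines) were summed.

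In edgeR 4.0.16, counts passed filterByExpr (minimum count 10, total 15), were scaled by TMM and entered a robust, 2-sided quasi-likelihood test, with Benjamini-Hochberg adjustment over 13467 genes. The SE is the log2 fold change divided by the square root of F. Genes with 1 to 3 counts in a line have a depth-scaled ratio with an exact 95% interval. Members and lists were chosen with earlier results of these data known. Named from each list were called genes with the largest change and a mean of at least 1 CPM: up to 4 for ERBB, HGF and adaptors, 3 for shedding and inhibitors and 6 for other kinases. Genes outside that rule are marked. Other marker lists were tested too. Primitive endoderm markers had 2 higher and 5 lower calls of 7 tested (10 listed). Fibroblast or feeder cell markers had 1 and 1 of 5 tested (9 listed), and endothelial markers 2 and 2 of 4 tested (5 listed). Over all tested genes 67.4% were called. Alternatives were single libraries or both numbered 3 left out, a replicate block, size factors of DESeq2, limma-voom 3.58.1, DESeq2 1.42.0, a minimum mean of 10 CPM, no filter, an adjusted p of 0.01 and a test against 1.5-fold.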

Additional observations from a re-analysis of the deposited data

How the results depend on the processing

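Kit, Kitl, Egfr, Met and Hbegf kept their direction and their call under each alternative that could be run; the filter on a mean of at least 10 CPM removed Egfr, Erbb2 and Met. Leaving out single libraries gave log2 fold changes of -5.47 to -4.24 for Egfr, 0.52 to 0.97 for Erbb2, -3.61 to -2.70 for Met, 2.92 to 3.49 for Kit, -7.91 to -6.80 for Kitl and -3.81 to -3.52 for Hbegf. Where both lines kept a count, the ratios were 0.378 to 1.24 for Erbb3, 0.0602 to 0.177 for Areg and 15.1 to 41.7 for Epgn. These ranges leave out Erbb3 without EWS-OCT-4 replicate 2 and Epgn without EGFP replicate 3. In each of these a line had no count left, so the ranges miss the most extreme settings. Erbb2 passed the test with limma-voom (0.77), DESeq2 (0.74), without EGFP replicate 3 (0.97) and without both libraries numbered 3 (0.94). The ratio of Erbb3 was above 1 without EGFP replicate 3 (1.24) and without both libraries numbered 3 (1.92), where few counts remain. The filter on a mean of at least 10 CPM left 3 members, 8 receptor inhibitors and 11 other receptor tyrosine kinases to test. Of these, 3, 3 and 9 were called, beside 6335 of 8918 genes over all. Of the other ERBB genes 1 of 2 tested was called without both libraries numbered 3, beside 10240 of 13538 genes over all. Of the other HGF genes 1 of 6 tested was called without EGFP replicate 1, beside 8172 of 13778 genes over all. With no filter it was 1 of 9, beside 9469 of 18933. At an adjusted p of 0.01 it was 1 of 5, beside 7386 of 13467. Over the single libraries left out, 1 to 2 of the other HGF genes were called. Against a change of 1.5-fold, 16 of 33 tested adaptors and cascade genes were called, beside 6399 of 13467 genes over all. The cause of these changes was not tested beyond the fewer genes or samples named. Over all genes, 6335 to 10240 were called under the alternatives. Across the lines, deviations from the line mean correlated at 0.0426, 0.0562 and 0.155 for the same replicate numbers 1, 2 and 3. Only the libraries numbered 3 correlated best with their own number. Against numbers 1 and 2 of the other line they correlated at -0.108 to -0.0949. The main fit had no term for replicate number. With the replicate block the log2 fold change of Egfr was -4.73, of Erbb2 0.77 (not called), of Met -3.08, of Kit 3.20, of Kitl -7.12 and of Hbegf -3.62. Depth limits Erbb3, Areg and Epgn.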
